A study of Hippoglossus hippoglossus with 15 samples.

Results

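The transcripts described here are 150 of the 10180 probes of a custom Agilent array of Atlantic halibut (Hippoglossus hippoglossus), chosen because their signal at the germ ring stage and at the 2 stages measured after it lay within a fixed range and far above that in low quality embryos of the 8-cell stage. The rule set no level of its own. A level is the log2 processed signal of a probe minus the 75th percentile of its array, averaged over the spots of the probe, so that a level of 0 is the 75th percentile and a difference of 1 is a 2-fold change. The rule kept the 6646 probes whose means at germ ring, at 10 somites (replicates 1 and 2) and at hatching lay within 2 of each other. The 150 members were then selected on the measured levels of these arrays, as those with the largest margin between the lowest of these 3 means and the mean of the low quality 8-cell arrays. The arrays held RNA of whole embryos in 5 groups of 3 arrays each. High quality 8-cell embryos (8CS) and low quality 8CS embryos were taken at 8 h post fertilisation (hpf), germ ring embryos (GR) at 82 hpf, embryos with 10 somites (10SS) at 142 hpf and hatched larvae (HT) at 340 hpf, the last 3 being of high quality. High and low quality refer to the share of eggs fertilised and the share hatched in the batch. Sperm pooled from 2 males served for the fertilisation in vitro. The replicates are described as batches of embryos. For the comparison of qualities the methods give a second broodstock and incubation in Petri dishes with antibiotics (penicillin, streptomycin and neomycin). The labels give a single farm and large incubators for every sample. Which holds for the high and low quality 8CS arrays is not clear. If the methods hold for the low quality arrays alone, quality, broodstock, antibiotics and incubation cannot be told apart. If they hold for both qualities, stage, broodstock, antibiotics and incubation cannot be told apart between 8CS and the later arrays.

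Early fish embryos live on messenger RNA that the mother laid down in the egg. During the mid-blastula transition the zygotic genome becomes active, part of the maternal RNA is cleared, and genes needed by all dividing and differentiating cells begin to be read. At the germ ring stage gastrulation starts, with a thickened ring of cells spreading over the yolk; somites, the blocks that give rise to muscle and axial skeleton, form after that. Transcripts that are scarce in cleaving embryos and abundant from gastrulation on are a known feature of this handover. A level is relative to the other probes of its array. In whole embryos, a higher one may reflect more cells with a transcript, more of it per cell or less of other transcripts. These cannot be told apart. None of the 150 probes is among the 304 probes paired with a description or an accession in the tables used here, and the reference's gene table holds none of their identifiers. The members are therefore given by probe name, and no function is assigned to them.

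Across all 15 arrays, between 69.3% and 90.1% of the probes were well above background and no probe spot was saturated. The 10 stage markers come from tables the study made on these arrays, so that their highest mean at their own stage, found in all 10, does not check the labels. The array labelled 10SS replicate 3 stood apart. Over the 9283 probes kept for testing it correlated at 0.822 and 0.824 with 10SS replicates 1 and 2, which correlated at 0.991 with each other, and at 0.937 with the mean of GR. HH_90598196 (slc22a2, a marker of 10SS) had levels of -1.82 and -2.07 on 10SS replicates 1 and 2 and of -6.75 on replicate 3, against -7.30, -7.89 and -7.76 on the GR arrays. HH_90607644 (ifi56, a marker of GR) went the other way, with 0.78, 0.64 and -0.23 on the GR arrays, -6.39 and -6.22 on 10SS replicates 1 and 2 and -4.46 on replicate 3. HH_Contig1753 (il7, also of GR) lay between -3.43 and -2.91 on the GR arrays and at -7.82, -6.44 and -5.50 on the 3 10SS arrays. This array thus resembled neither group in full, and whether its embryos were at the labelled stage was not tested. The rule left this array out of the 10SS mean, and below the later means and the stage with the highest mean leave it out as well, whereas counts and ranges over the 9 later arrays include it. It lay on the same slide as all HT arrays, with no other stage there.

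The median level of the members rose between 8CS and GR and moved little after GR on this scale. With arrays scaled to their spike-in probes all 150 members had their lowest later mean at GR, and the median rose by a further 2.80 from GR to HT. On the 75th percentile scale their median level was -4.25, -3.85 and -4.07 on the 3 high quality 8CS arrays and -6.33, -6.31 and -5.60 on the 3 low quality 8CS arrays. It was 0.79, 0.74 and 0.87 on the GR arrays, 0.97, 0.85 and 1.41 on the 10SS arrays (the last being replicate 3), and 1.03, 1.04 and 1.04 on the HT arrays. The low quality, GR, 10SS replicate 1 and 2 and HT values chose the members, so this contrast is a description. The high quality 8CS arrays and 10SS replicate 3 did not enter the choice.

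**Figure D1:**
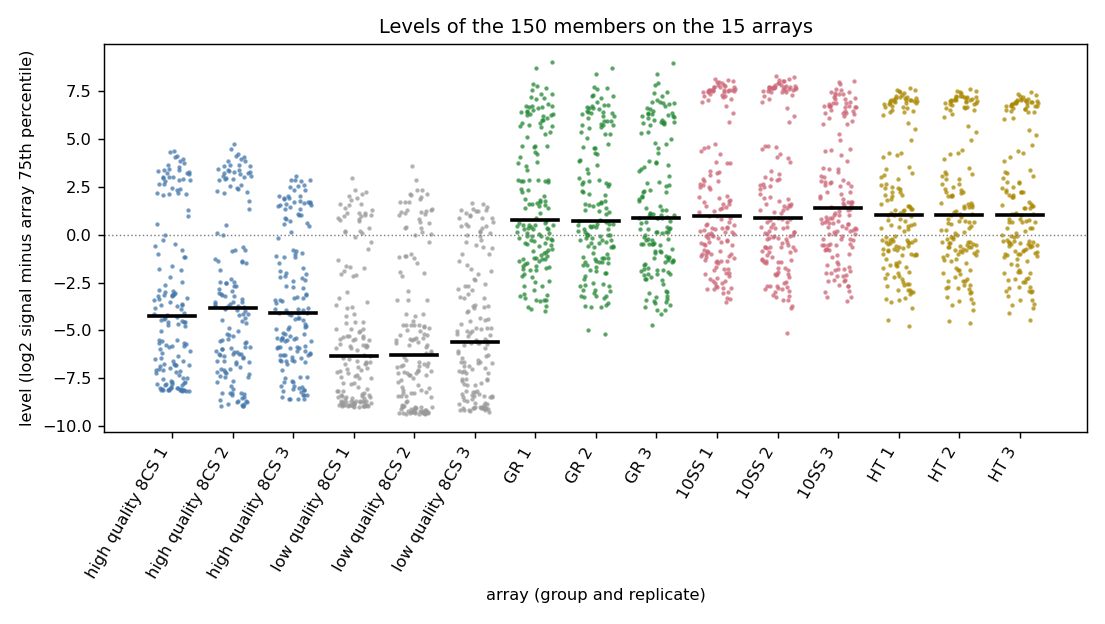
Level of each of the 150 members (points) on each of the 15 arrays, as log2 signal minus the 75th percentile of the array, with the median over members as a black bar and that percentile as a dotted line. The medians lie between -6.33 and -3.85 on the 8CS arrays and between 0.74 and 1.41 on the later arrays.

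Low did not mean absent at the 8-cell stage. A probe counts as well above background on an array where most of its spots are marked so by the extraction software. On the 3 high quality 8CS arrays 94, 111 and 113 of the 150 members were well above background, and 77, 85 and 92 were on the 3 low quality 8CS arrays. In percent, the members stood at 62.7, 74.0 and 75.3 on the high quality arrays, and all probes at 76.2, 80.6 and 78.8. On the low quality arrays the members stood at 51.3, 56.7 and 61.3, and all probes at 75.7, 78.9 and 79.8. All 150 were well above background on every GR, 10SS and HT array, where all probes stood at 69.3% to 90.1% per array. The low quality arrays and the later arrays other than 10SS replicate 3 helped to choose the members, so their counts are a description. Counted by member, 90 were well above background on all 3 high quality 8CS arrays (80.9% of all probes kept) and 27 on none, and 74 were on all 6 8CS arrays. On no 8CS array were 25 members well above background. For the counts of 27, 74 and 25 no share over all probes was taken. The number above the 75th percentile of every high quality 8CS array was 38, or 25.3%, near the 24.6% of all probes. Above that of every low quality 8CS array were 24 members, or 16.0%, against 24.7% of all probes. The term switched on therefore goes against the data for the members detected at 8CS. They are described here as rising by germ ring and, on the 75th percentile scale, held within the range the rule set. The rule kept 138 of the 150 members with quantile normalization but 30 with spike-in scaling. On the spike-in scale the median over all 150 rose by a further 2.80 from GR to HT.

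The 5 members with the highest mean level in high quality 8CS were picked for that level. They serve as examples of detection at 8CS and add no support. HH_Contig22 had levels of 4.40, 4.73 and 2.83 on the high quality 8CS arrays and 2.33, 2.85 and 1.26 on the low quality ones, and then 7.78, 7.59 and 7.95 at GR, 7.96, 8.10 and 7.86 at 10SS and 7.45, 7.39 and 7.06 at HT. The lowest later array of this probe lay above its highest 8CS array. HH_Contig1440 had 4.33, 4.49 and 2.86 in high quality 8CS and between 7.36 and 8.30 on all later arrays. HH_Contig1472, HH_Contig2789 and HH_Contig1273 had high quality 8CS means of 3.74, 3.61 and 3.54 and GR means of 6.70, 7.25 and 7.60. In all 5, replicate 3 was the lowest of the 3 high quality 8CS arrays.

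The rule took low values on the low quality 8CS arrays, and there the members lay lower than in high quality 8-cell embryos. The mean of high quality 8CS exceeded that of low quality 8CS in 148 of 150 members, with a median difference of 1.50 on the log2 scale (quartiles 1.06 and 2.32, highest 9.42) against 0.11 over all 9283 probes. The exceptions were HH_Contig1771, at -7.91 against -7.69, and HH_90598350, at -1.86 against -1.74. Every high quality array lay above every low quality array in 121 members, and the reverse held in 0. Over all probes these shares were 21.3% and 17.1%. Low values on the low quality arrays were part of the rule, which moves this difference upward. Nothing is therefore read from the counts or from any median of this difference, here or below, and no test is given. The within-slide medians, under the same limit, were 1.73 on slide 1, with 2 high quality and 1 low quality array, and 1.36 on slide 4, with 1 of each. Among the 74 members well above background on all 6 8CS arrays it was 1.55. With the array scaled to its spike-in probes it was 0.75, on a scale where the median of all probes was -0.64. The 119 probes with as large a margin, but with later means further than 2 apart, had a median of 2.18.

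**Figure D2:**
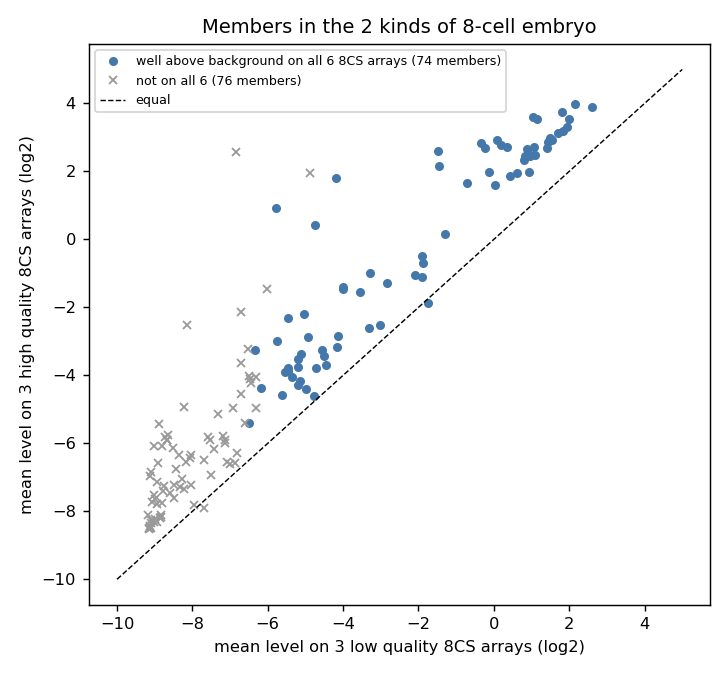
Mean level of each member over the 3 high quality 8CS arrays (vertical) against that over the 3 low quality 8CS arrays (horizontal), both log2 relative to the 75th percentile, with the line of equal values dashed. Of the 150 members 148 lie above the line; blue points are the 74 members well above background on all 6 arrays and grey crosses the other 76.

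The 10 members with the widest margin over low quality 8CS, between 9.15 and 14.24, had high minus low quality differences from 2.88 to 9.42. HH_Contig1521, the first, had levels of -8.86, -9.32 and -2.39 on the low quality arrays and 2.46, 2.91 and 2.33 on the high quality ones. It then reached 8.73, 8.41 and 8.39 at GR, 7.95, 7.92 and 8.00 at 10SS and 7.49, 7.43 and 7.23 at HT. Low quality replicate 3 was thus far above the other 2 for this probe, although still below every high quality array.

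HH_Contig1445, the next, repeated this with -6.65, -6.10 and -1.88 in low quality 8CS, 1.31, 1.75 and 2.85 in high quality 8CS and 9.04, 8.73 and 8.96 at GR. Over all members low quality replicate 3 was 2 or more above the mean of replicates 1 and 2 in 3 cases, these 2 probes and HH_38317672, and its median deviation was 0.07. HH_90596411 did not depend on one array. Its levels were -8.37, -8.45 and -7.64 in low quality 8CS, where no array had it well above background, -2.89, -2.48 and -2.22 in high quality 8CS, 4.63, 4.58 and 3.55 at GR, 4.55, 4.66 and 4.40 at 10SS and 3.44, 3.16 and 3.20 at HT. Against the low quality arrays its GR mean was at least 2669-fold higher, where the bound takes, for each dim array, the higher of the probe's own signal and the lowest signal well above background.

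HH_Contig2073, HH_Contig809 and HH_Contig759 lay between -6.32 and -2.88 in low quality 8CS, between 0.00 and 2.57 in high quality 8CS and between 5.22 and 7.74 on all later arrays. For these 3 probes the 3 groups of arrays did not overlap. HH_90600458 had means of -6.02, -1.44 and 4.35 in low quality 8CS, high quality 8CS and GR. The last 3 of the 10 were dimmer. HH_Contig956 had levels of -8.91, -9.11 and -8.60 in low quality 8CS and -5.85, -5.21 and -5.27 in high quality 8CS, and then stayed between 1.1 and 1.59 on all 9 later arrays. HH_Contig2307 went from a mean of -8.63 and -5.75 in low and high quality 8CS to 1.37 at GR, and HH_Contig2508 from -6.70 and -3.63 to 2.53.

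**Figure D3:**
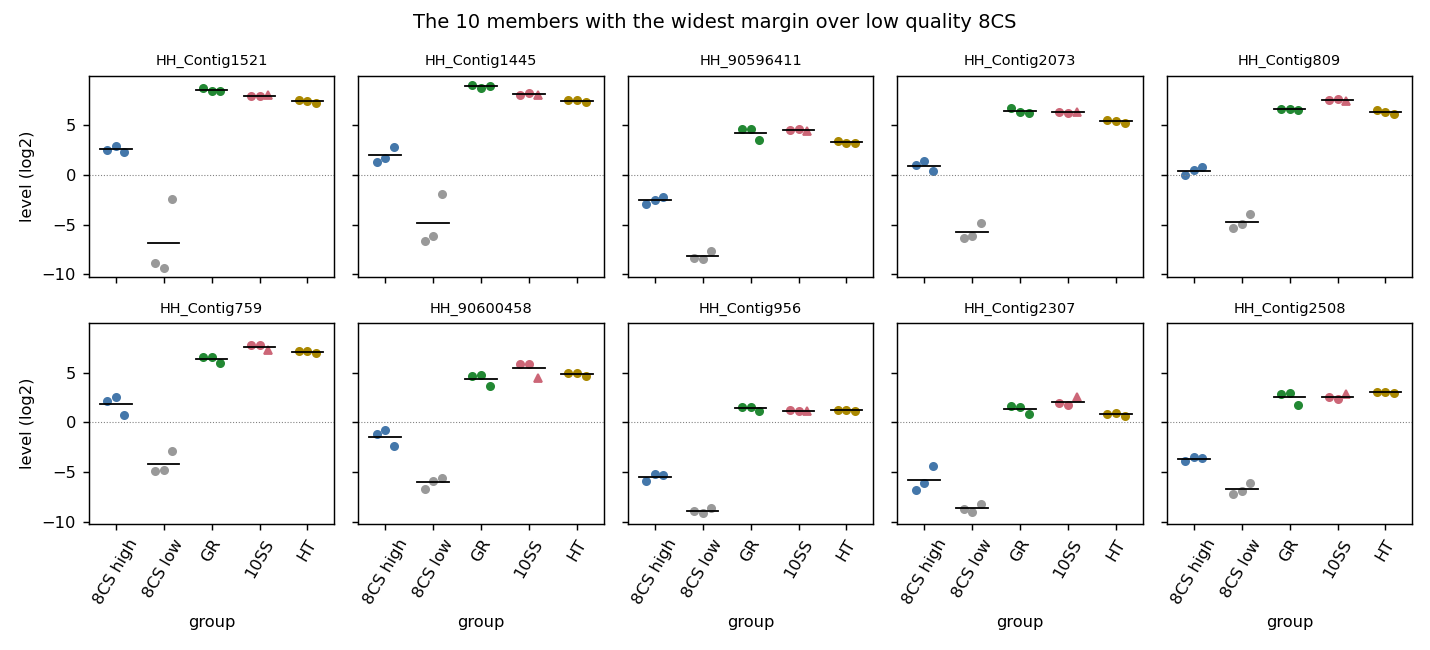
Levels (log2 relative to the 75th percentile, dotted line) of the 10 members with the largest margin, in each of the 5 groups, with 1 point per array in replicate order, the array labelled 10SS replicate 3 as a triangle and the mean of 3 arrays as a bar. In HH_Contig1521 and HH_Contig1445 the third low quality array, at -2.39 and -1.88, lies apart from the other 2.

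A further test compared the array labelled 10SS replicate 3 with the 3 high quality 8CS arrays, the 4 arrays the rule left out. The other 8 high quality arrays gave only the spread, and the rule had used them. Over all probes 10SS replicate 3 correlated at 0.937 with the mean of GR, which helped to choose the members. The high quality 8CS arrays, in turn, share the stage of the low quality arrays from which the margin was taken. The choice therefore favoured members higher on this array than in high quality 8CS. The result is not separate from the choice, and the number of members called is a description. All 150 members were higher on 10SS replicate 3 by limma with Benjamini-Hochberg adjustment over 9283 probes, an adjusted p under 0.05 and a change of at least 2-fold. Over all probes 26.9% were called higher. The median member difference was 5.52 on the log2 scale, and the SE of a difference ranged from 0.20 to 0.81. The largest adjusted p was 0.00552, for HH_38317588. This side of the test is 1 array that stands apart from its group, and it was assumed to vary as the other groups do. Without this array no contrast could be made that leaves out every array of the rule. With normexp background correction 92 of 150 were called, and 147 after outlying local backgrounds were replaced.

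The 123 members that were well above background on at least 1 high quality 8CS array were between 6.89-fold (HH_90600153) and 328-fold (HH_75738686) higher on 10SS replicate 3, with a median of 35.4-fold. Of these 123, 18 were well above background on only 1 of these arrays and 15 on only 2. Their folds rest in part on 8CS values that were not well above background. For the 27 members well above background on none of these arrays only a bound can be given. It ran from at least 8.94-fold for HH_90600486 to at least 106-fold for HH_90597644. Every member lay higher on 10SS replicate 3 than on each high quality 8CS array, which held for 42.5% of all probes. The lowest of the 3 later means, which leave 10SS replicate 3 out, exceeded the high quality 8CS mean by 1.57 to 6.67 with a median of 4.39. It was at least 2-fold higher in all 150 members and in 12.7% of all probes. Each of the 9 later arrays lay above each high quality 8CS array in all 150 members, and in 18.1% of all probes. On slide 4, which carried 1 array each of GR and high quality 8CS, all 150 were higher at GR, by 1.64 to 7.27, as were 54.8% of all probes. The later arrays other than 10SS replicate 3 helped to choose the members, so these counts over later means and arrays are a description.

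After germ ring the members differed among themselves within the limit the rule set. The mean of 10SS replicates 1 and 2 minus the mean of GR had a median of 0.57 (range -1.90 to 1.99), against -0.35 over all probes. On slide 2 and slide 3, which carried 1 array of each of these stages, the median was 0.41 and 0.48. HT minus GR had a median of 0.16 (range -2.0 to 1.94), against -0.22 over all probes, and HT minus 10SS replicates 1 and 2 had one of -0.44. The span between the 3 means ran from 0.08 in HH_90600000 to the limit, with a median of 1.24, and was under 1 in 47 members. The highest of the 3 means was at 10SS in 76 members, at GR in 44 and at HT in 30, but with arrays scaled to their spike-in probes these numbers were 43 and 0, with HT the highest in all other members. No share over all probes was taken for these counts. On the spike-in scale the median of all probes rose by 2.42 from GR to HT and that of the members by 2.80. The distance between members and all probes, 0.39, is the same on both scales by construction.

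By the non-overlap of arrays, 84 members were higher on 10SS replicates 1 and 2 than on every GR array (33.7% of all probes) and 32 were lower than every GR array (45.9% of all probes). For HT against GR these numbers were 65 (36.4% of all probes) and 44 (44% of all probes). These stages chose the members, and nothing is read from the comparison with all probes.

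**Figure D4:**
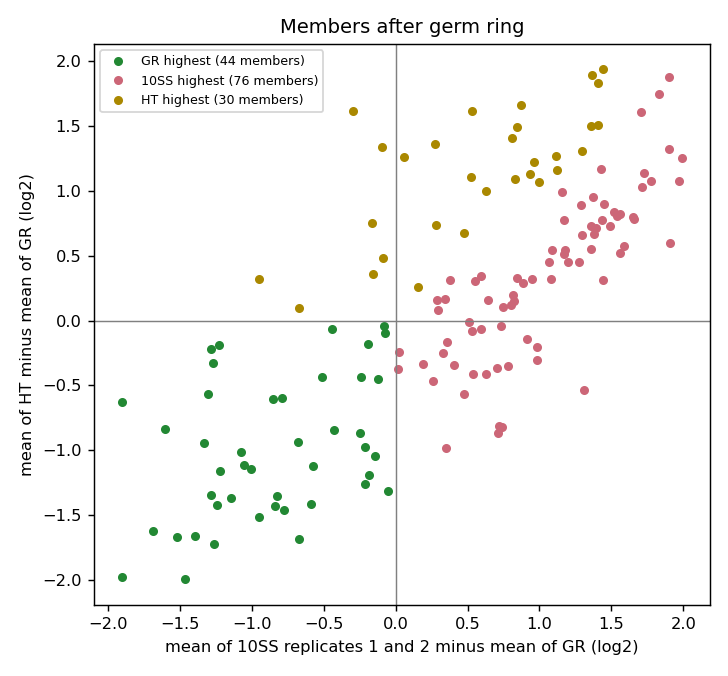
For each of the 150 members, the mean of 10SS replicates 1 and 2 minus the GR mean (horizontal) and the HT mean minus the GR mean (vertical), both log2. Colours give the stage with the highest mean, which is 10SS for 76 members, GR for 44 and HT for 30; the edges near 2 and -2 are set by the rule.

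Of the 5 members with the largest HT minus GR, 4 had a mean level under 0 at GR. HH_Contig2426 rose from -2.66, -2.64 and -2.34 at GR to -1.15 and -1.06 on 10SS replicates 1 and 2 and -0.78, -0.63 and -0.42 at HT, although 10SS replicate 3 lay at -3.27. HH_Contig764 went from -1.79, -1.57 and -1.81 at GR to -0.13, 0.22 and 0.37 at HT. HH_90605131, HH_90603055 and HH_166851396 had HT minus GR differences of 1.89, 1.83 and 1.75. In all 5 probes the 3 HT arrays lay above the 3 GR arrays.

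At the other end, HH_Contig2629 fell by 2.0 from GR to HT, from 4.22, 4.19 and 4.54 to 2.39, 2.35 and 2.22, with 10SS replicates 1 and 2 at 2.79 and 2.90 and replicate 3 at 5.27. HH_90597977 had -0.90, -1.03 and -1.30 at GR and between -3.10 and -2.94 on all 6 arrays after it, so that its level was reached by 10SS and kept. HH_Contig514, HH_166851273 and HH_90597644 had HT minus GR differences of -1.73, -1.68 and -1.67. In all 5 probes the HT arrays lay below the GR arrays. With spike-in scaling, which adds 1 constant to every probe between these stages, all 5 differences are above 0.

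The array labelled 10SS replicate 3 differed from its group in both directions among the members. Its difference from the mean of replicates 1 and 2 had a median of 0.03 over members (range -3.09 to 2.97, quartiles -0.72 and 0.74), against 0.28 over all probes. It lay within 2 of all 3 later means in 129 of 150 members, or 86.0%, against 91.8% of the 6646 probes that passed the same limit. HH_166850684 had the largest shortfall. Its levels were 2.62 and 2.49 on replicates 1 and 2 and -0.53 on replicate 3, with 2.37, 2.27 and 2.0 at GR and 2.42, 2.38 and 2.35 at HT, so that this array lay below every GR and HT array and still above the high quality 8CS arrays at -3.18, -2.86 and -4.10. HH_90603055, HH_Contig2426, HH_38317588 and HH_90600458 were lower on replicate 3 by 2.28, 2.17, 1.92 and 1.41.

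The largest excess was in HH_Contig2627, with -2.82 and -2.99 on replicates 1 and 2 and 0.06 on replicate 3, where the GR arrays had -0.86, -0.94 and -1.21. HH_90597644 and HH_Contig124 had excesses of 2.88 and 2.83, and HH_90596106 and HH_166851031 of 2.62 and 2.61. In all 5 members replicate 3 exceeded every other array of the series.

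The third array of high quality 8CS also departed from its group, and its deviations went with those of 10SS replicate 3. Across the 150 members, the deviation of high quality 8CS replicate 3 from the mean of replicates 1 and 2 correlated with that of 10SS replicate 3 at r = 0.70. Over the 9283 probes this r was 0.57, and over the 74 members well above background on all 8CS arrays 0.65. These deviations share no array, but probes of one array share its labelling and hybridization, and probes are not independent replicates. High quality replicate 3 was above the mean of replicates 1 and 2 in 23 of the 25 members with 10SS replicate 3 at least 1 above its group, by a median of 1.13. It was above it in 5 of the 47 members with 10SS replicate 3 at least 0.5 below its group, where the median was -1.27. The 2 cutoffs differ and no share over all probes was taken, so nothing is read from these counts. Deviations of the third low quality, GR and HT arrays correlated with that of 10SS replicate 3 at 0.09, 0.17 and 0.15 across members, and with that of high quality 8CS replicate 3 at 0.25, 0.16 and 0.22. Over the 74 members these values were 0.31, 0.04 and 0.41 for 10SS and 0.52, -0.01 and 0.51 for high quality 8CS. Within these 74 members the shared deviation was thus not limited to this pair of arrays. Over the 9283 probes the values were -0.15, -0.04 and 0.05 for 10SS and -0.11, 0.05 and 0.02 for high quality 8CS, each smaller in size than the 0.57 of this pair. Both deviations also went with the difference between GR and 10SS. That of high quality 8CS replicate 3 correlated with 10SS replicates 1 and 2 minus GR at -0.55 across members and -0.58 over the 9283 probes. That of 10SS replicate 3 correlated with GR minus 10SS replicates 1 and 2 at 0.66 and 0.86, but both sides there hold 10SS replicates 1 and 2. High quality 8CS replicate 3 lay on slide 4, and replicates 1 and 2 on slide 1. The part of slide, batch or stage in this was not tested.

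**Figure D5:**
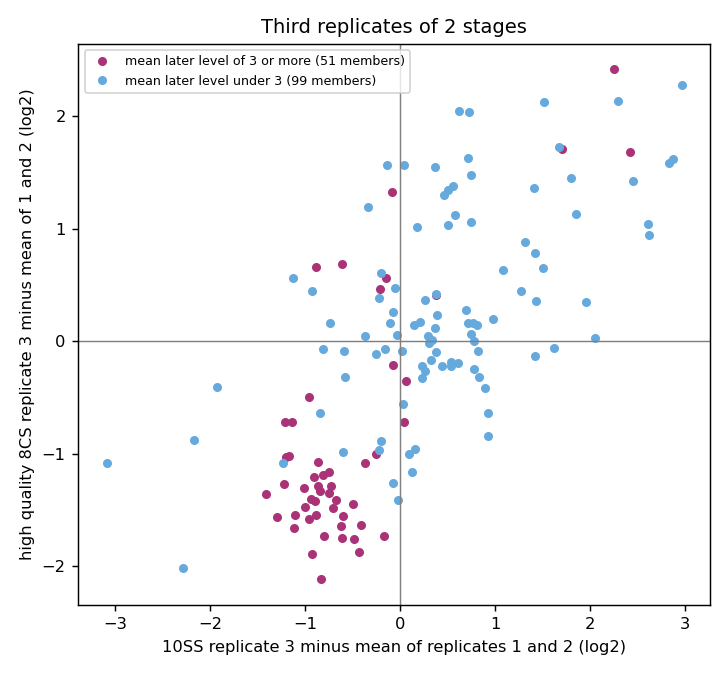
Deviation of replicate 3 from the mean of replicates 1 and 2 in log2 units, for high quality 8CS (vertical) and for 10SS (horizontal), with 1 point per member. The points run from lower left to upper right (r = 0.70), and the 51 members with a mean later level of 3 or more lie mostly at the lower left.

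The members spanned a wide range of brightness. With a limit chosen after the values were seen, 51 members had a mean level of 3 or more over the 9 later arrays and 99 a lower one. Of the 51, 9 lay between 3 and 4, 4 between 4 and 6 and 38 at 6 or more, so that the limit does not fall in the sparse stretch. The brighter 51 had median levels of 2.65, 2.91 and 1.51 on the high quality 8CS arrays, 0.17, 0.34 and -0.29 on the low quality ones and 6.07 to 7.59 on the later arrays. All 51 were well above background on every high quality 8CS array, and 46 on every low quality one. Their highest later mean was at 10SS (replicates 1 and 2) in 43 of 51, and 42 of 51 probes were designed on contigs (consensus sequences of several expressed sequence tags). On 10SS replicate 3 they were lower than on replicates 1 and 2 in 45 of 51, with a median of -0.75. On high quality 8CS replicate 3 they were lower than on replicates 1 and 2 in 42 of 51, with a median of -1.29. Over all probes these 2 medians were 0.28 and 0.05. No share of all or of equally bright probes was counted, so nothing is read from the counts of highest stage or of lower replicates.

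The dimmer 99 had medians between -6.31 and -5.53 on the high quality 8CS arrays, between -7.84 and -7.24 on the low quality ones and between -0.50 and 0.22 on the later arrays. Their highest later mean was spread over GR (37), 10SS replicates 1 and 2 (33) and HT (29), again without a share over all probes. Here 39 members were well above background on all high quality 8CS arrays, and 26 were designed on contigs. The high minus low quality difference was 1.84 in the brighter and 1.30 in the dimmer members at the median. In all, 68 of the 150 members (45.3%) were contig probes, against 30.1% of the array. Whether several probes represent the same transcript could not be checked, since the files used here give no probe sequence.

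Replicates of members were closest at HT, where the median SD over 3 arrays was 0.10, followed by GR (0.24), low quality 8CS (0.41), 10SS (0.44) and high quality 8CS (0.59). Over all probes the order differed, and the SD was 0.12 at HT, 0.32 at GR, 0.26 in low quality 8CS, 0.60 at 10SS and 0.28 in high quality 8CS. The HT arrays shared a slide, whereas the arrays of every other group were spread over slides, so slide and group cannot be told apart here. The SD at 10SS includes replicate 3. At the edge of the choice, the last 3 members were HH_90600153, HH_Contig453 and HH_90598350 with margins of 4.39, 4.37 and 4.36, and the next 3 probes were HH_90600945, HH_Contig51 and HH_90596520 with 4.35, 4.35 and 4.32. No gap separated them. HH_Contig453 had levels of -3.17, -3.22 and -3.33 in high quality 8CS, -4.56, -4.26 and -4.88 in low quality 8CS, 0.86, 0.54 and 0.87 at GR, -0.19, -0.19 and 1.23 at 10SS and 1.15, 1.07 and 1.01 at HT.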

How the data were processed

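RNA of whole embryos was hybridized in 1 colour (Cy3) to 15 arrays, 3 per group. Per the file headers, the deposited scanner output gives each spot's processed signal, a background-subtracted intensity (the headers name Feature Extraction 10.7.1.1, the submitters' processing notes 7.2). A second deposited file holds log2 values of 9017 probes, which the authors scaled by the 75th percentile and centred on the probe's median across arrays; it served as an alternative. Control spots and outlier spots (749 to 1186 per array) were left out, the array's 75th percentile was subtracted from the log2 processed signal, and spots of a probe name (4 or 5 per member) were averaged. Groups came from the labels. Arrays have no sequencing depth, and their number, 3 per group, limits the precision.

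The members and lists were chosen with earlier results of these data known. Named are the 10 members with the largest margin, the 5 with the largest and smallest HT minus GR, the 5 with the largest shortfall and excess on 10SS replicate 3, the 5 highest in high quality 8CS, and the 3 on either side of the threshold; others were chosen after their values were seen. Functional gene lists could not be used, since no member has a name here. The test across probes used limma 3.58.1 in R 4.3.3 (lmFit, eBayes, Benjamini-Hochberg, adjusted p under 0.05, at least 2-fold) on the 9283 probes that reached the 20th percentile of 1 or more of the 12 high quality arrays, with 10SS replicate 3 as a level of its own. Tested on simulated data with 9283 probes for this comparison, it recovered 66%, 84%, 100% and 98% of changes of 1.5, 3, 5 and 7 on the log2 scale. It made 13 false calls there. The simulated 10SS replicate 3 had the spread of the other groups, whereas the real array stood apart from its group. These rates therefore do not describe the test on the real array. Alternatives were quantile normalization, normexp (offset 50), spike-in scaling (8 of 10 probes), other filters, the median over spots, the deposited table, slide or replicate number as a block, and leaving out arrays.

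Same-numbered arrays of high quality 8CS and 10SS deviated together from their group means (r = 0.35 to 0.57 over 9283 probes, each over 0.1). In this comparison the numbers were taken to pair the arrays, from the data and not from the labels. This pairing is an assumption. Deviations cancel out within a group, so these r are not separate from each other, and arrays of unlike number were not compared. Over all stages r ran from -0.23 to 0.57 and was over 0.1 in 5 of 18 pairs.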

Additional observations from a re-analysis of the deposited data

How the results depend on the processing

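All 150 members stayed called higher on 10SS replicate 3 than in high quality 8CS with quantile normalization, spike-in scaling, the deposited table, the median over spots, no filter or a stricter one, no 2-fold limit, low quality arrays in the fit and slide as a random block (correlation 0.491). Among the members no call changed with the replicate block, which assumes the pairing, or with each high quality 8CS array left out in turn. The 4 arrays alone called 149. Normexp called 92, and 147 after 77 outlying local backgrounds were replaced, an alternative chosen after seeing the data. Slide as a fixed block could not be fitted, because the slide of 10SS replicate 3 held no array but this one and HT. Slide and stage therefore cannot be told apart there. The choice of members favoured these calls, so their number under each setting is a description.

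Of the 150 members the rule kept 93 with normexp (106 with backgrounds replaced) and 30 with spike-in scaling, where stage means lie further apart. It kept 138 to 148 without each array in turn, 130 with high quality 8CS as the baseline, and 137 with all 10SS arrays. The median of high minus low quality 8CS was 1.22 with quantile normalization, 0.89 with normexp, 0.76 with backgrounds replaced, 0.75 with spike-in scaling and 1.20 in the deposited table, and 1.42 to 1.67 without each array. The median of HT minus GR was 2.80 with spike-in scaling and 0.10 to 0.25 without each array. That of 10SS replicate 3 minus replicates 1 and 2 was -0.37 with spike-in scaling and -0.02 to 0.08 without each array. Causes were not tested.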
